A study of Mus musculus with 4 samples.

Results

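Sterol and fatty acid synthesis is described here through 28 genes, chosen by name as genes of cholesterol and fatty acid synthesis that sterol regulatory element-binding proteins (SREBPs) control. They were 28 of 52636 gene identifiers in each count table and 28 of 16557 genes tested. All 28 were found and all 28 passed the filter on low counts. They fall into 17 enzymes of cholesterol synthesis, 7 enzymes of fatty acid synthesis and desaturation, and 4 regulators and carriers. The rule that chose them uses names and no threshold on measured values, but the set was proposed with earlier results of these data known.

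RNA was sequenced from otic cells of the mouse, sorted by fluorescence out of otocysts, the vesicles that form the inner ear. There were 2 control libraries and 2 libraries labelled Brg1cKO, a conditional knockout of Brg1 (Smarca4), the ATPase of a chromatin remodelling complex. Each library came from 3000 cells. The study concerns Brg1 in the switching on of Sox2 and in proneurosensory fate, and its title does not name lipid synthesis. The labels give no Cre driver, allele, strain, age or reporter, and do not say whether replicates came from separate embryos or sorts, so the p-values cover a spread between libraries that may be technical.

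Animal cells build cholesterol from acetyl-CoA through mevalonate and squalene, and build saturated fatty acids from the same acetyl-CoA through malonyl-CoA. SREBPs are membrane-bound transcription factors that are released when sterols are low. SREBP2 acts mainly on the cholesterol genes and SREBP1 mainly on the fatty acid genes, often beside the CCAAT-binding factor NF-Y. The pathway feeds membrane growth in dividing embryonic cells, and cholesterol is also attached to Hedgehog ligands.

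The libraries held 15357265 and 19132360 reads in genes in the controls and 29361382 and 25875555 in the libraries labelled Brg1cKO. Smarca4 itself stood at 816 and 815 CPM (a gene's reads relative to the TMM-scaled total of its library) in control libraries and at 891 and 848 CPM under the Brg1cKO label. Its count therefore does not check the label, and every direction below rests on the labels. Reads outside any deleted exons are counted too, and their part in these values was not tested. The cell makeup read from marker genes also differed. Of 10 otic epithelium markers, 9 were lower in both libraries labelled Brg1cKO than in both controls, with summed levels of 1364 to 1603 CPM in the controls and 253 to 256 CPM in the others. Neuron markers were lower for 7 of 7 (1173 to 1205 against 340 to 404 CPM). White blood cell markers were higher for 9 of 10 (281 to 325 against 1298 to 1407 CPM), and striated muscle and heart markers for 7 of 7 (73.2 to 81.1 against 564 to 572 CPM). Red blood cell markers were lower for 4 of 5 tested (576 to 626 against 196 to 212 CPM), and head mesenchyme markers were lower for 3 of 6 and higher for 3 (2758 to 2949 against 2265 to 2269 CPM). Endothelium markers were higher for 3 of 6 (2062 to 2257 against 2547 to 2564 CPM), surface ectoderm markers lower for 1 of 3 tested (251 to 282 against 167 to 193 CPM), and both tested liver-like endoderm markers overlapped (27.2 to 56.6 against 26.3 to 52.8 CPM). Alb, a liver gene, was the only marker at 0 in all libraries. In bulk RNA, fewer cells of a type and less RNA per cell cannot be told apart, and the part of this makeup in the results below was not tested.

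Promoter sequence is shown first, because the set is defined by shared regulators that bind promoters. RefSeq windows (GRCm38.p6, the mm10 build), from 250 bases before to 50 bases after a transcript start, were matched for 21 of 28 genes. Fdps, Fdft1, Sqle, Scd1, Scd2, Fads1 and Stard4 were not matched. The letters CCAAT, searched on both strands, lay in the windows of 18 of 21 genes (85.7%), against 41.1% of 27025 genes with such a window. By group this was 13 of 14 sterol enzymes, 2 of 4 fatty acid enzymes and 3 of 3 regulators. The sterol regulatory element TCACNCCAC, on both strands, lay in 1 of 21 genes, Hmgcs1, against 1.44% of all genes. Its shortened form TCACNCCA, which overlaps it, lay in Hmgcs1, Msmo1 and Srebf2 (14.3% against 4.97%). These matches describe letters in a window and no binding.

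The 200 bases before the start are printed for 5 genes, 5′ to 3′ on the gene's strand, with CCAAT or its reverse complement ATTGG and the full sterol regulatory element in capitals. Hmgcs1 and Msmo1 are sterol enzymes whose levels were lower in the libraries labelled Brg1cKO, and Pmvk is a sterol enzyme whose level was higher. Fasn and Fads2 are fatty acid enzymes whose levels were lower. Hmgcs1 (chr13:119690151-119690350, plus strand) holds 2 CCAAT boxes around the sterol element, and Msmo1 (chr8:64733579-64733778, minus strand) holds 3. Pmvk (chr3:89454341-89454540, plus strand, the first of its 2 windows) holds 1. Fasn (chr11:120824548-120824747, minus strand) holds 3, of which an overlapping pair on opposite strands reads CCAATTGG. Fads2 (chr19:10101504-10101703, minus strand) holds 0.
Hmgcs1: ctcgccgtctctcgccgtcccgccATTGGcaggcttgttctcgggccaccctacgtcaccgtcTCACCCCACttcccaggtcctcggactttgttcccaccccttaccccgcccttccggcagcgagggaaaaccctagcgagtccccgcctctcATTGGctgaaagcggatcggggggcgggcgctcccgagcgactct
Msmo1: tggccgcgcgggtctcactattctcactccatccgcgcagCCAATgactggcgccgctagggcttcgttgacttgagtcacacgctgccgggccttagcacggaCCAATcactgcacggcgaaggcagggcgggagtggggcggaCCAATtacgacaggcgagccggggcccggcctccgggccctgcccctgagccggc
Pmvk: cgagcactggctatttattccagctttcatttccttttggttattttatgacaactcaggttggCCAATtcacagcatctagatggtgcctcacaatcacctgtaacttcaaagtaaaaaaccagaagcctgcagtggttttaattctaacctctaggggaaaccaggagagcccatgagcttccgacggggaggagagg
Fasn: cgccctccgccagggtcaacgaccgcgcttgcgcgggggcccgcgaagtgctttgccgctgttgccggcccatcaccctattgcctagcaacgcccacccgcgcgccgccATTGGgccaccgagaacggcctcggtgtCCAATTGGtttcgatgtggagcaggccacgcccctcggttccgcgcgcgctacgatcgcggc
Fads2: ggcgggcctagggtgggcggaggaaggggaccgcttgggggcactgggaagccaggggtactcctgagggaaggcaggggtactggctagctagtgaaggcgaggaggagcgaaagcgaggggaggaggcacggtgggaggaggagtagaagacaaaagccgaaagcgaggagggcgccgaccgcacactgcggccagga
The 5 genes were picked by the direction of their levels, and only Pmvk among them was higher. Whether CCAAT boxes go with direction was therefore not tested.

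Across the set, 0 of 28 genes passed at an adjusted p under 0.05 by edgeR's quasi-likelihood test, where 5 of 16557 genes passed (0.0302%). At an unadjusted p under 0.05, 6 of 28 were lower in the libraries labelled Brg1cKO and 0 were higher, against 4.80% lower and 7.66% higher among all genes tested. These 6 were Scd2, Scd1, Acaca, Fasn, Acat2 and Srebf2. For 11 of 28 genes (39.3%) both libraries labelled Brg1cKO lay below both controls, and for 2 of 28 (7.14%) both lay above, against 17.8% and 26.3% of all genes tested. Among genes averaging at least 20 CPM, a limit chosen after the values were seen, 11 of 24 members lay below and 1 above, against 22.6% and 23.0%. The median log2 fold change was -0.39 for the 28 genes and 0.03 for all genes tested, and 20 of 28 members were negative against 48.5% of all genes.

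Calls depended on the tool and the libraries. DESeq2 called 9 members, all lower, where it called 6.30% of all genes lower, and limma voom called only Scd2, lower, as it did 0.205% of all genes. Without control replicate 1 there were 10 calls, 7 lower and 3 higher, against 8.82% of genes tested in each direction. Without control replicate 2 there were also 10, all lower, against 8.39%. Acat2, Acaca, Scd1 and Scd2 were called in both of those fits, which take the spread of the lone control from the other group. Without Brg1cKO replicate 1 and without Brg1cKO replicate 2, edgeR called 0 members, against 0.237% and 0.173% of all genes, and in each of these fits 2 members were lower at an unadjusted p under 0.05. The lowest adjusted p of a member was then 0.99998 and 0.848.

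**Figure D1:**
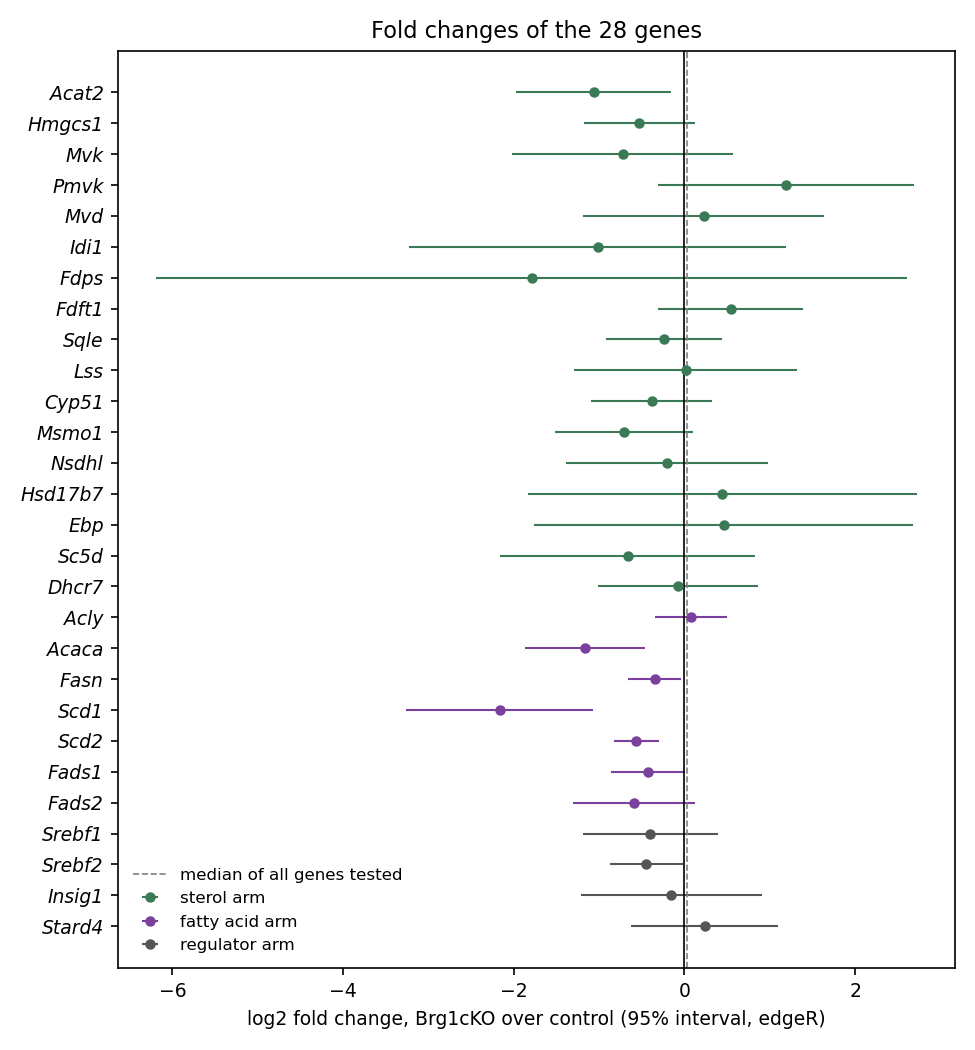
Log2 fold change of the libraries labelled Brg1cKO over the controls for each of the 28 genes (points), with 95% intervals from edgeR (bars), coloured by group, and the median of all 16557 genes as a dashed line. The intervals of Acat2, Acaca, Fasn, Scd1, Scd2 and Srebf2 lie below 0, and no interval lies above 0.

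The fatty acid enzymes were the group with the tightest replicates and the most even pattern. For 6 of 7 the groups did not overlap, and all 6 were lower in the libraries labelled Brg1cKO, where 17.8% of all genes were. All 7 averaged at least 20 CPM, and of all such genes 22.6% were lower in this way. The median log2 fold change was -0.56, and it lay between -0.60 and -0.48 under the 14 alternative settings. Their summed level was 2163 and 2184 CPM in control libraries and 1600 and 1585 CPM with the Brg1cKO label, a difference of -26.7% that was not tested as a sum. Without Scd2, the most abundant of them, the sums were 1242 and 1126 against 937 and 910 CPM. In the same libraries the summed otic, neuron, red blood cell, head mesenchyme and surface ectoderm markers were lower and the summed white blood cell, muscle and endothelium markers higher, by the sums given above. The head mesenchyme list itself split into 3 genes lower and 3 higher. Its Col1a1 stood at 1107 and 1207 against 568 and 580 CPM. Its Col3a1, the highest of that list, stood at 1188 and 1299 against 1300 and 1358 CPM.

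Acly, ATP citrate lyase, makes the cytosolic acetyl-CoA that both pathways use. It had control values of 336 and 256 CPM and values of 324 and 301 CPM under the Brg1cKO label. The groups overlapped, and the log2 fold change of 0.08 ± 0.179 (SE) had a 95% interval from -0.34 to 0.50 (edgeR adjusted p = 0.932). Acly was thus the enzyme of this group with no separation.

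Acaca, acetyl-CoA carboxylase 1, makes malonyl-CoA in the committed step of fatty acid synthesis. It had control values of 105 and 102 CPM and values of 48.7 and 43.5 CPM under the Brg1cKO label, a 2.25-fold lower mean. Both values of one group lay well clear of the other, and the replicates within each group differed little. The log2 fold change of -1.17 ± 0.301 (SE) had a 95% interval from -1.87 to -0.46 (edgeR unadjusted p = 0.00560, adjusted p = 0.300). Of the distinct 75-base sequences of Acaca transcripts, 26.8% also occur in other annotated genes, 45 in number, so its count is uncertain. Fasn, fatty acid synthase, which extends malonyl-CoA to palmitate, stood at 442 and 429 CPM against 339 and 345 CPM. Its groups were also separate, by a smaller step, with a log2 fold change of -0.35 ± 0.132 (SE; adjusted p = 0.368).

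In the fit to all 4 libraries the largest relative difference in the set was in Scd1, a stearoyl-CoA desaturase that puts the first double bond into palmitate and stearate. It had control values of 63.9 and 50.8 CPM and values of 11.2 and 14.3 CPM under the Brg1cKO label, from 984 and 958 reads against 328 and 372. The lowest control was above the highest of the others by a wide margin, and the mean was 4.49-fold lower. The log2 fold change of -2.17 ± 0.467 (SE) had a 95% interval from -3.26 to -1.07 (edgeR unadjusted p = 0.00215, adjusted p = 0.228). With a library left out Scd1 ranged from -2.35 to -1.99. Fdps differed by more than Scd1 without control replicate 2 (-2.60) and without Brg1cKO replicate 2 (-2.68). So did Ebp (2.35) and Hsd17b7 (2.09) without control replicate 1.

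Scd2, the desaturase isoform that predominates in mouse embryo and brain, had the highest level of the set. It had control values of 921 and 1058 CPM and values of 663 and 675 CPM under the Brg1cKO label, and the groups did not overlap. The log2 fold change of -0.56 ± 0.112 (SE) had a 95% interval from -0.83 to -0.30 (edgeR unadjusted p = 0.00138, adjusted p = 0.178), the lowest adjusted p of the 28. Scd2 was called by limma voom, by DESeq2, without the filter on low counts (1.01% of genes called lower), with the replicate number as a block (0.417%) and when either control was left out. It was not called under the other 8 of 14 settings, with adjusted p from 0.0834 with the newer edgeR moderation to 0.99998 without Brg1cKO replicate 1. The desaturase genes are neighbours on chromosome 19 in mm10, Scd2 from 44293674 to 44306864 and Scd1 from 44394455 to 44407879.

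The balance of the desaturases differed between the groups. Per kilobase of exon, Scd2 stood 12.9 and 18.6 times as high as Scd1 in the controls and 53.0 and 42.1 times as high in the libraries labelled Brg1cKO, with no overlap. This ratio was looked at after the values were seen and was not tested. Of the distinct 75-base sequences in their transcripts, 3.15% of those of Scd1 and 1.78% of those of Scd2 also occur in other annotated genes, mainly other Scd genes. Scd3 and Scd4 themselves were at or below 0.909 CPM in every library and did not pass the filter.

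Fads1 and Fads2, the delta-5 and delta-6 desaturases that make long polyunsaturated fatty acids, lie near each other on chromosome 19 and gave similar ratios. Fads1 had control values of 201 and 205 CPM and values of 153 and 150 CPM under the Brg1cKO label. Fads2 stood at 94.8 and 82.2 against 61.5 and 55.8 CPM. Neither gene's groups overlapped. Their log2 fold changes were -0.43 ± 0.185 and -0.59 ± 0.304 (SE), and neither passed (edgeR adjusted p = 0.416 and 0.520).

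**Figure D2:**
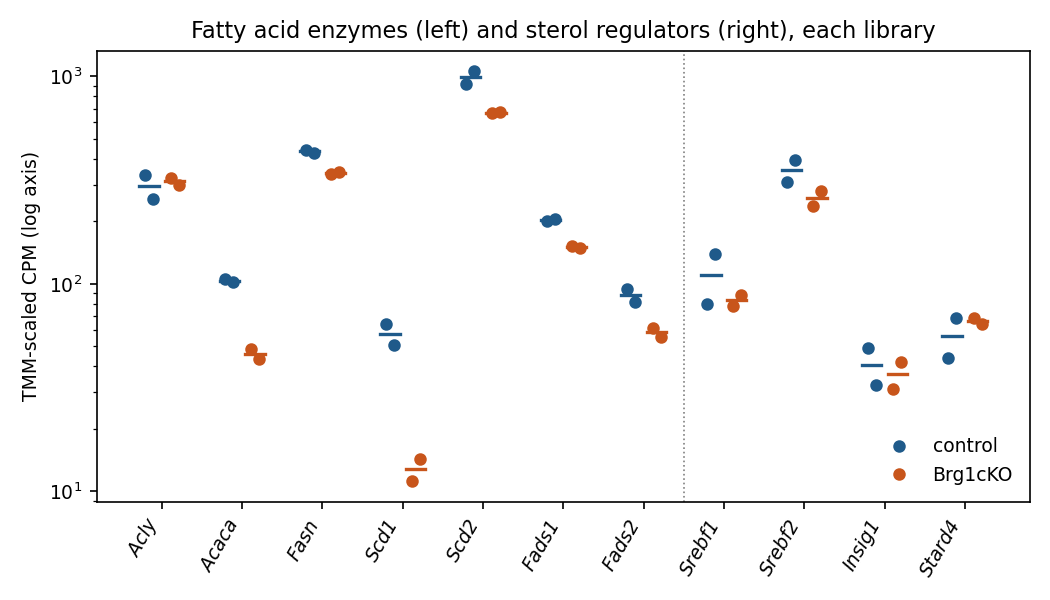
TMM-scaled CPM of each library (points, log axis) and group means (bars) for the 7 fatty acid enzymes, left of the dotted line, and the 4 regulators and carriers, right of it. In 6 of the 7 enzymes, all but Acly, both libraries labelled Brg1cKO lie below both controls, and among the regulators this holds for Srebf2 only.

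Among the regulators, Srebf2, which encodes SREBP2, had control values of 311 and 396 CPM and values of 237 and 282 CPM under the Brg1cKO label. The groups did not overlap, but the gap between them was smaller than the spread within either. The log2 fold change of -0.45 ± 0.183 (SE) had a 95% interval from -0.88 to -0.01 (edgeR unadjusted p = 0.0444, adjusted p = 0.381). Srebf1, which encodes both SREBP1 isoforms, stood at 80.2 and 140 against 78.0 and 88.6 CPM, and the groups overlapped.

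Insig1, which holds SREBPs in the endoplasmic reticulum and is itself a classical SREBP target, had control values of 48.9 and 32.6 CPM and values of 31.1 and 42.0 CPM under the Brg1cKO label. Stard4, a sterol carrier, stood at 43.8 and 68.3 against 68.2 and 64.1 CPM. Both overlapped between groups, with log2 fold changes of -0.15 and 0.24 and intervals from -1.22 to 0.91 and from -0.62 to 1.10. The median of the 4 genes was -0.28, and it moved to -0.12 without control replicate 2 or without Brg1cKO replicate 1 and to -0.43 without Brg1cKO replicate 2.

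The cholesterol enzymes leaned lower without sharing one direction, with 11 negative log2 fold changes and 6 positive. Of 17, both libraries labelled Brg1cKO lay below both controls for 4 (23.5%) and above for 2 (11.8%), against 17.8% and 26.3% of all genes, and 11 overlapped. Among the 13 averaging at least 20 CPM, the limit used above, 4 lay below and 1 above (30.8% and 7.69%), against 22.6% and 23.0% of all such genes. The summed level of the 17 overlapped between groups (945 and 740 against 641 and 744 CPM), a difference of -17.8% that was not tested. The median log2 fold change was -0.24, and it stayed negative under all 14 alternative settings. It became -0.05 without control replicate 1, -0.38 without control replicate 2 and -0.44 without Brg1cKO replicate 2. The replicates were also less even than for fatty acid enzymes: the median absolute log2 ratio between the controls was 0.60 over the 17 genes and 0.20 over the 7 fatty acid enzymes. The 17 also had lower levels, with a mean control sum of 842 CPM against 2174 CPM for the 7. The part of level in this was not tested. The difference between the groups of enzymes was not tested.

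At the head of the pathway, Acat2, the cytosolic thiolase that joins acetyl-CoA units, had control values of 60.5 and 61.2 CPM and values of 30.4 and 27.8 CPM under the Brg1cKO label. This was a 2.09-fold lower mean with tight replicates, and a log2 fold change of -1.06 ± 0.385 (SE; edgeR unadjusted p = 0.0269, adjusted p = 0.368). Of the distinct 75-base sequences of Acat2 transcripts, 33.9% also occur in Acat3 or Tcp1, so its count is uncertain. Acat3 itself stood between 0 and 3.08 CPM, and the source of reads with shared sequence was not tested. Hmgcs1, which makes HMG-CoA and carries the sterol element printed above, stood at 188 and 127 against 96.1 and 122 CPM. Its lower control lay just above its higher library labelled Brg1cKO (log2 fold change -0.53 ± 0.277, adjusted p = 0.536).

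In the mevalonate steps the kinases differed. Mvk, mevalonate kinase, had control values of 50.5 and 24.6 CPM and values of 20.7 and 24.8 CPM under the Brg1cKO label, with overlap. Pmvk, the next kinase, stood at 14.7 and 9.50 against 27.0 and 28.3 CPM. Its groups were separate, with a 2.29-fold higher mean in the libraries labelled Brg1cKO and a log2 fold change of 1.20 ± 0.639 (SE; adjusted p = 0.548). Mvd, the decarboxylase that ends this section, stood at 24.2 and 19.6 against 17.7 and 33.5 CPM and overlapped.

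Counts of the isoprenoid steps varied widely between replicates. Idi1, isopentenyl diphosphate isomerase, had control values of 35.0 and 7.16 CPM and values of 7.82 and 13.0 CPM under the Brg1cKO label. Fdps, farnesyl diphosphate synthase, stood at 9.16 and 1.43 against 0.820 and 2.24 CPM. The controls of Idi1 spanned both values of the other group, and the groups of Fdps overlapped too. Fdps shares 1124 exonic bases with Gm43738 on the same strand, and 9.57% of its 75-base sequences occur in other genes, against 16.7% for Idi1, so the counts of both are uncertain.

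Fdft1, squalene synthase, commits farnesyl diphosphate to sterols. It had control values of 55.9 and 39.3 CPM and values of 72.7 and 66.0 CPM under the Brg1cKO label, above both controls, with a log2 fold change of 0.54 ± 0.362 (SE; edgeR adjusted p = 0.663). Fdft1 shares 774 exonic bases with Ctsb, a lysosomal protease gene on the opposite strand, and the strand setting of the counting is not given in the sources used here. Ctsb had control values of 315 and 201 CPM and values of 504 and 464 CPM under the Brg1cKO label, and its part in the Fdft1 value was not tested.

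Sqle, squalene epoxidase and a rate-limiting step, had control values of 111 and 92.5 CPM and values of 73.8 and 98.3 CPM under the Brg1cKO label. Lss, which closes the sterol rings, stood at 40.3 and 19.6 against 26.3 and 34.1 CPM. Both overlapped, with log2 fold changes of -0.24 and 0.01.

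The demethylation of lanosterol held the other separated enzymes. Cyp51, the lanosterol 14-alpha demethylase, had control values of 130 and 86.1 CPM and values of 85.5 and 80.3 CPM under the Brg1cKO label. It counts as not overlapping only by the small gap between 86.1 and 85.5 CPM. Msmo1, the sterol C4-methyl oxidase, stood at 79.6 and 65.0 against 45.0 and 43.5 CPM, a clearer separation with a 1.63-fold lower mean and a log2 fold change of -0.71 ± 0.344 (SE; edgeR adjusted p = 0.485). Nsdhl and Hsd17b7, which complete the C4 demethylation, both overlapped, with log2 fold changes of -0.20 and 0.44.

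In the last steps, Ebp, the sterol isomerase, had control values of 33.1 and 5.20 CPM and values of 14.6 and 38.1 CPM under the Brg1cKO label. Sc5d, the C5 desaturase, stood at 23.1 and 70.0 against 20.4 and 38.3 CPM. Dhcr7, which makes cholesterol from 7-dehydrocholesterol, stood at 39.7 and 50.6 against 45.8 and 39.8 CPM, a log2 fold change of -0.08 with an interval from -1.01 to 0.86. All of these overlapped, and the controls of Ebp and Sc5d were far apart.

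**Figure D3:**
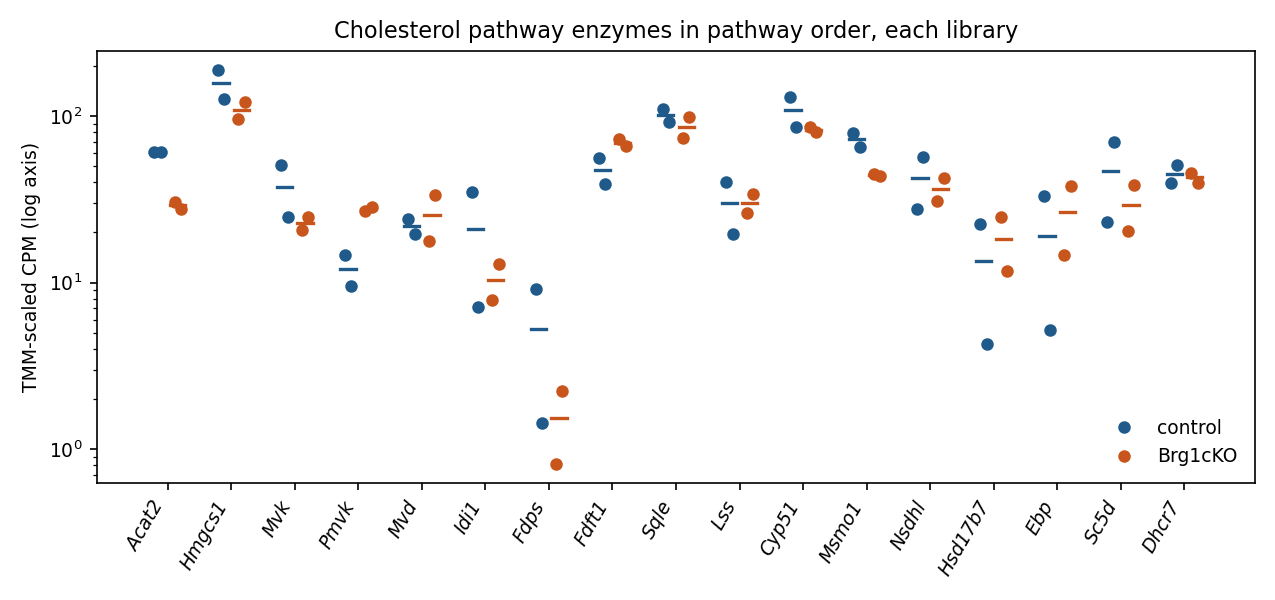
TMM-scaled CPM of each library (points, log axis) and group means (bars) for the 17 cholesterol enzymes in pathway order. Acat2, Hmgcs1, Cyp51 and Msmo1 are lower and Pmvk and Fdft1 higher in both libraries labelled Brg1cKO, and the controls of Idi1, Fdps, Hsd17b7 and Ebp lie far apart.

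Levels can be compared between genes per kilobase of merged exons. In the controls the order was led by Scd2 at 181 CPM per kilobase, followed by Acly at 56.1, Srebf2 at 49.2, Fads1 at 42.2, Fasn at 39.8 and Hmgcs1 at 34.3. The same 6 genes led in the same order in the libraries labelled Brg1cKO, at 122, 59.2, 36.1, 31.4, 31.3 and 23.8. Most neighbours in the order differed by less than the replicates of the more variable gene did, in 25 of 27 pairs in the controls and 23 of 27 in the libraries labelled Brg1cKO. Among these 6 genes the pairs with a larger gap were Scd2 and Acly in both groups, Fads1 and Fasn in the controls, and Acly and Srebf2, and Fasn and Hmgcs1, in the libraries labelled Brg1cKO. Scd1 was the 17th of 28 in the controls and the 27th in the others, and Pmvk was the 23rd and the 10th. Fdps was the lowest in both groups.

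Other genes of the pathway gave mixed values, to be read against the 17.8% of all genes that lay below both controls and the 26.3% that lay above. Of 6 further cholesterol enzymes tested, 0 passed, 1 lay below both controls (Lbr, a sterol reductase of the nuclear envelope), 5 overlapped, and the median log2 fold change was -0.11. Of the 4 genes for SREBP processing, 3 lay above both controls, and 0 had an unadjusted edgeR p under 0.05. Scap, the SREBP escort protein, stood at 19.7 and 31.1 against 48.9 and 42.5 CPM (edgeR adjusted p = 0.561). Insig2 was near the floor in the controls, at 0 and 3.29 against 8.20 and 11.4 CPM. Mbtps2 stood at 12.2 and 15.2 against 16.2 and 41.3 CPM, a narrow gap. For uptake, storage and trafficking of cholesterol 8 of 9 genes were tested, of which 2 lay below and 3 above, with a median of 0.05.

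Of 15 further genes for fatty acid synthesis, 12 were tested, 2 lay below both controls, 3 above, 0 passed, and the median was -0.13. The elongases differed. Elovl6, which extends palmitate to stearate, had control values of 135 and 91.7 CPM and values of 73.2 and 70.0 CPM under the Brg1cKO label (log2 fold change -0.66 ± 0.301, adjusted p = 0.444). Elovl1, which makes very long chains, stood at 27.9 and 21.6 against 61.0 and 63.3 CPM (1.33 ± 0.406, adjusted p = 0.365). Both were separated between groups, in opposite directions. Against the same 17.8% and 26.3% of all genes, these 12 genes had 16.7% below and 25.0% above, and the difference between them and the 7 fatty acid members was not tested.

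**Figure D4:**
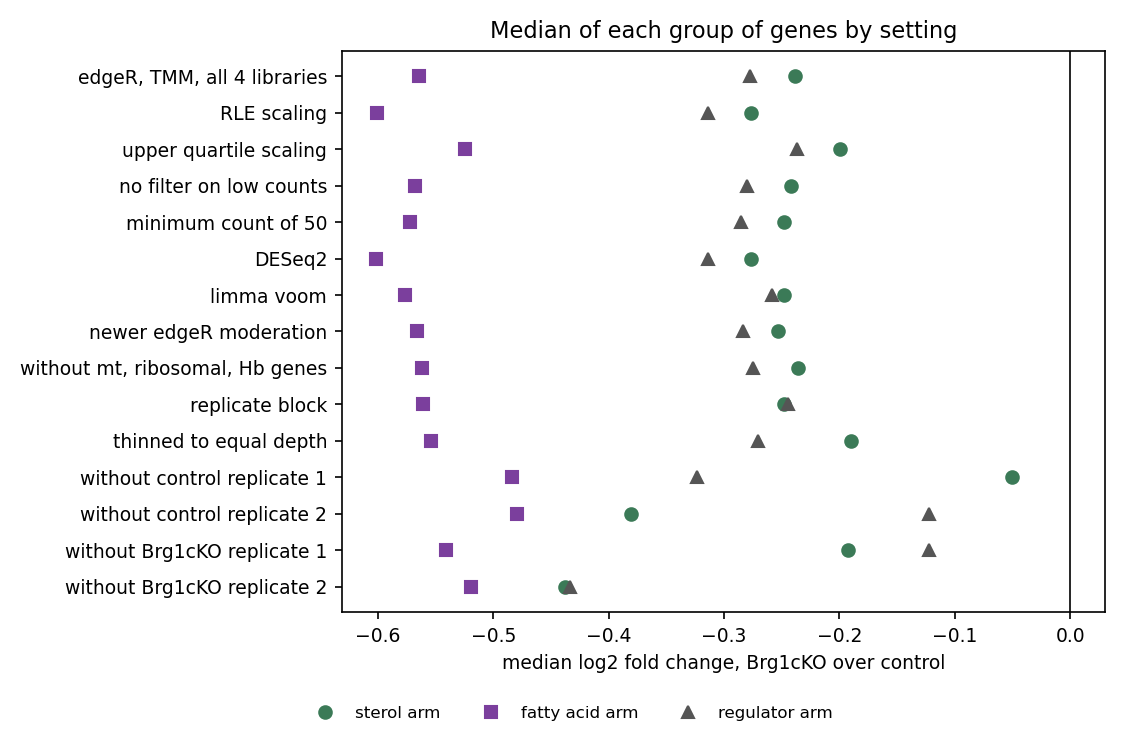
Median log2 fold change (libraries labelled Brg1cKO over controls) of the sterol, fatty acid and regulator genes under the reported fit (top line) and each of 14 other settings. The fatty acid median stays between -0.60 and -0.48, while the sterol median ranges from -0.44 to -0.05 as single libraries are left out.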

How the data were processed

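Each deposited table holds the authors' raw counts of reads for each Ensembl gene in 1 library, not normalized. The submitters' processing notes list HISAT2, HTSeq, DESeq2 and mm10 without roles. The libraries were random-primed and strand-specific, with single reads of 75 bases, per the labels' protocols. The 5 closing lines, which name no gene (50.7% to 51.8% of records in the controls, 36.0% to 36.3% in the others), were left out.

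Symbols and exon lengths came from GENCODE M21 (mm10), which matched 52403 of 52636 identifiers. All genes were fitted together in edgeR 4.0.16 (R 4.3.3): filterByExpr with a minimum count of 10, TMM scaling, robust quasi-likelihood fit with group as the term, Benjamini-Hochberg adjustment over 16557 genes, threshold 0.05. The fit was also run on counts simulated with its own estimates of spread, which cannot check those estimates, and the outcome is not reported here. DESeq2 1.42.0, limma 3.58.1 and 12 other settings were alternatives. Replicates differed by more than counting noise in both groups, with a chi-squared per gene of 119 for the control pair and 44.0 for the Brg1cKO pair. Fewer genes had a read in control libraries, 17266 and 17086, against 20859 and 20902 under the Brg1cKO label. Records that did not align made up 20.9% and 19.1% for controls, against 9.54% and 9.41%. Alignment and genes with a read thus differed along with group, as did depth. Genes with a read were not compared at equal depth, and the part of library quality in the results was not tested.

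The members and lists were chosen with earlier results of these data known. Named genes are all 28 members, Smarca4, and, from the other pathway lists, genes with the smallest p or highest CPM, of which some are not reported here. Overlapping genes (Ctsb), other Scd genes and the sequence, level and ratio descriptions were added after the values were seen. Medians of gene groups carry no test, and depth sets only counting error.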

Additional observations from a re-analysis of the deposited data

How the results depend on the processing

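Counts of calls moved with the tool, the filter on low counts, the replicate block and the library left out. The count over all genes, 5 as reported, was 417 with no filter on low counts, 10 with a minimum count of 50, 2422 with DESeq2, 54 with limma voom, 70 with the newer edgeR moderation and 140 with the replicate number as a block, and 33 to 3519 with a library left out. Calls among the 28 genes, 0 as reported, were 2 with no filter (Scd1 and Scd2), 9 with DESeq2, 1 with limma voom, 1 with the replicate block (Scd2), and 0 to 10 with a library left out. The lone library is then assumed to vary like the other group. Replicate numbers do not pair the libraries by any label, and the deviations of same-numbered libraries had a correlation of 0.0096 over tested genes.

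The fatty acid median, -0.56 as reported, was -0.60 with RLE scaling, -0.52 with upper quartile scaling, -0.60 with DESeq2 and -0.54 to -0.48 with a library left out. With libraries left out the sterol median ranged from -0.44 to -0.05 and the regulator median from -0.43 to -0.12. Lss changed sign with RLE scaling (-0.026) and DESeq2 (-0.026). Single genes that changed sign with a library left out were Mvd (-0.30 to 0.63), Idi1 (-1.77 to 0.54), Fdps (-2.68 to 0.10), Lss (-0.43 to 0.63), Nsdhl (-0.63 to 0.39), Hsd17b7 (-0.32 to 2.09), Ebp (-0.39 to 2.35), Sc5d (-1.25 to 0.32), Dhcr7 (-0.24 to 0.090), Acly (-0.12 to 0.29), Srebf1 (-0.74 to 0.036), Insig1 (-0.44 to 0.17) and Stard4 (-0.043 to 0.58). The other 15 genes, among them all fatty acid enzymes but Acly, kept their direction under all 14 settings. The cause of each change was not tested.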

Other observations

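Genes that use or burn fatty acids were looked at beside those that make them. Of 9 fatty acid oxidation genes tested (of 10; Ppara was at 0 in every library), 0 lay below both controls and 5 lay above in both libraries labelled Brg1cKO, against 17.8% and 26.3% of all genes tested, with 0 called by edgeR and 0 at an unadjusted p under 0.05. Cpt1a, which lets long-chain fatty acids into mitochondria, had control values of 18.9 and 39.3 CPM and values of 49.8 and 67.2 CPM under the Brg1cKO label (log2 fold change 1.01 ± 0.491, adjusted p = 0.487). Of 6 glycerolipid synthesis genes, 2 lay below and 0 above. Lpin1, a phosphatidate phosphatase, stood at 16.5 and 24.9 against 3.21 and 6.60 CPM (-2.08 ± 0.898, adjusted p = 0.412). Of 7 genes of LXR and cholesterol efflux, 1 lay below and 2 above, and Abca1, a cholesterol exporter, stood at 93.4 and 60.3 against 109 and 136 CPM (0.67 ± 0.314, adjusted p = 0.463).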
